A study of Mus musculus with 8 samples.

Results

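Aminoacyl-tRNA synthetases are the enzymes that join each amino acid to its tRNA before protein synthesis. Mammalian cells carry a cytosolic set, part of which is held together in a multi-synthetase complex, and a second set, also encoded in the nucleus, that is imported into mitochondria. A few genes, among them Gars and Kars, supply both compartments. Many genes of the cytosolic set are known targets of ATF4, a transcription factor that raises amino acid transport, amino acid synthesis and tRNA charging when amino acids are scarce or the endoplasmic reticulum is stressed. The members described here were the 36 synthetase genes of a list with 20 cytosolic and 16 mitochondrial enzymes, found by gene symbol in the platform's annotation. Of these, 35 had at least 1 probe set under their own symbol, among 18194 symbols in all, and Dars, the aspartate enzyme, was not analysed here. The 35 genes had 72 probe sets, of which 65 were tested after a filter on low signals, and every one of the 35 genes had a tested probe set.

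Total RNA from cultured mouse cells had been hybridized to Affymetrix 3′ expression arrays, 1 array per sample. The groups were B16F10 PGC7 (3 clones), B16F10 control (1 array), NIH3T3 PGC7 (clones 1 and 2 and an uncloned culture from before cloning) and NIH3T3 control (1 array). B16F10 is a mouse melanoma line and NIH3T3 a mouse fibroblast line, and PGC7, also named Stella or Dppa3, is a germ cell and egg protein introduced by viral infection. The genotype label of all 6 PGC7 arrays reads PGC8 and pre-cloned, against their titles, so titles set the groups. The labels give neither the promoter of the transgene nor whether controls received a virus. The submitters call the clones independent and the uncloned culture a mixture of clones. Each line has 1 control array, so the p-value of a change, or of its difference between the lines, takes its spread from the PGC7 arrays alone. Line levels came from a fit with line and PGC7 status as terms, where the control arrays also contribute to the spread.

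Signals are MAS5 intensities in arbitrary units, each array brought to the same trimmed mean of 500, and changes are differences in log2(signal + 9), which understates changes of dim probe sets. Each gene is given by its brightest tested probe set. The markers went with the line labels: 7 melanocyte genes summed to 117417 to 135098 in B16F10 PGC7 arrays and 104710 in the B16F10 control, against 624 to 676 in NIH3T3 PGC7 arrays and 768 in the NIH3T3 control. The 5 fibroblast genes summed to 499 to 811 in B16F10 PGC7 arrays and 628 in their control, and to 70433 to 79975 in NIH3T3 PGC7 arrays and 83232 in theirs. Macrophage, epithelial and endothelial lists summed to at most 499 in any array. Dppa3 had signals of 70.0, 117 and 71.0 in B16F10 PGC7 clones 1, 2 and 3 against 23.5 in the control, and of 29.7, 55.4 and 100.7 in NIH3T3 PGC7 clones 1 and 2 and the uncloned culture against 69.8 in the control, and was called in neither line (adjusted p = 0.27 in B16F10 and 0.802 in NIH3T3, limma's moderated test). The poly-A spikes, bacterial RNAs added before labelling, lay above the B16F10 control by 0.62, 0.45 and 0.79 (median log2) in clones 1, 2 and 3, and differed from the NIH3T3 control by -0.23, -0.50 and -0.30 in clones 1 and 2 and the uncloned array. A change is thus measured against the bulk of the probe sets on the same array, and the part of RNA input or labelling in it was not tested. Because whole cultures were read, fewer cells with a transcript and less of it per cell cannot be told apart.

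Promoters of cytosolic genes are shown first because the 4 synthetase genes called in B16F10 were all cytosolic. RefSeq windows of GRCm38.p6, from 250 bases before to 50 after a gene's start, were at hand for 13 cytosolic genes, the unmeasured Dars included, and 14 mitochondrial ones. They were searched on both strands for the core of the C/EBP-ATF response element, the sequence that ATF4 binds with C/EBP partners, written TGATGNAA on one strand and TTNCATCA on the other. Of the cytosolic genes 5 of 13 held a match (38.5%), Aars, Gars, Iars, Tars and Yars, against 0 of 14 mitochondrial genes and 3.97% of all 32851 windows. The upstream stretches of 3 of these genes follow, with the match in capitals and the start of the gene right after the last base: Aars on chr8:111033692-111033841 (plus strand), Gars on chr6:55037901-55038000 (plus strand) and Tars on chr15:11399659-11399758 (minus strand).
Aars: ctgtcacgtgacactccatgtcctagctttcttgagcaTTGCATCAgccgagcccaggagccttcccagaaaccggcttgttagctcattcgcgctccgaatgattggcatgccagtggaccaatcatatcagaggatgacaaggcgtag
Gars: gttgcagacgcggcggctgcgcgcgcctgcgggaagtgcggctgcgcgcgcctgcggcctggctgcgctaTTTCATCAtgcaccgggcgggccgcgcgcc
Tars: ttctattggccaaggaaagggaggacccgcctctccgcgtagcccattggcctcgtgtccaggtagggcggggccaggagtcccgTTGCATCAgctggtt

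In Iars and Yars the match lay just past the start, and a 30-base stretch around it is shown for each, from chr13:49682125-49682154 and chr4:129189893-129189922 (both plus strand). Aars held a second match, at bases 10 to 17 after its start. The match in Yars read in the direction of the gene and the other 5 matches read against it.
Iars: gcactgtcagtaTTGCATCAcctccagacg
Yars: cgacgagctcagcTGATGCAAcccgacggg

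For contrast, the upstream stretch of Sars (chr3:108445260-108445409, minus strand), a cytosolic gene whose signal differed strongly in B16F10, and of its mitochondrial counterpart Sars2 (chr7:28741868-28741967, plus strand) held no match to these letters. A match is a description of the letters and not a binding site, and windows of Cars, Nars and 5 further cytosolic genes were not used here. Of the genes called in B16F10, Aars thus held a match, the window of Sars held none, and Cars and Nars were not searched. The other genes with a match, Gars, Iars, Tars and Yars, were not called in B16F10.
Sars: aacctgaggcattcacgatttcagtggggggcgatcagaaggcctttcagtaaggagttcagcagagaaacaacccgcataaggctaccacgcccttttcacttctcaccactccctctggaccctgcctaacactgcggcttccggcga
Sars2: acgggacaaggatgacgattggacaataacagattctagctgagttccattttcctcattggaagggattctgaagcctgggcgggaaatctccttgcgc

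**Figure D1:**
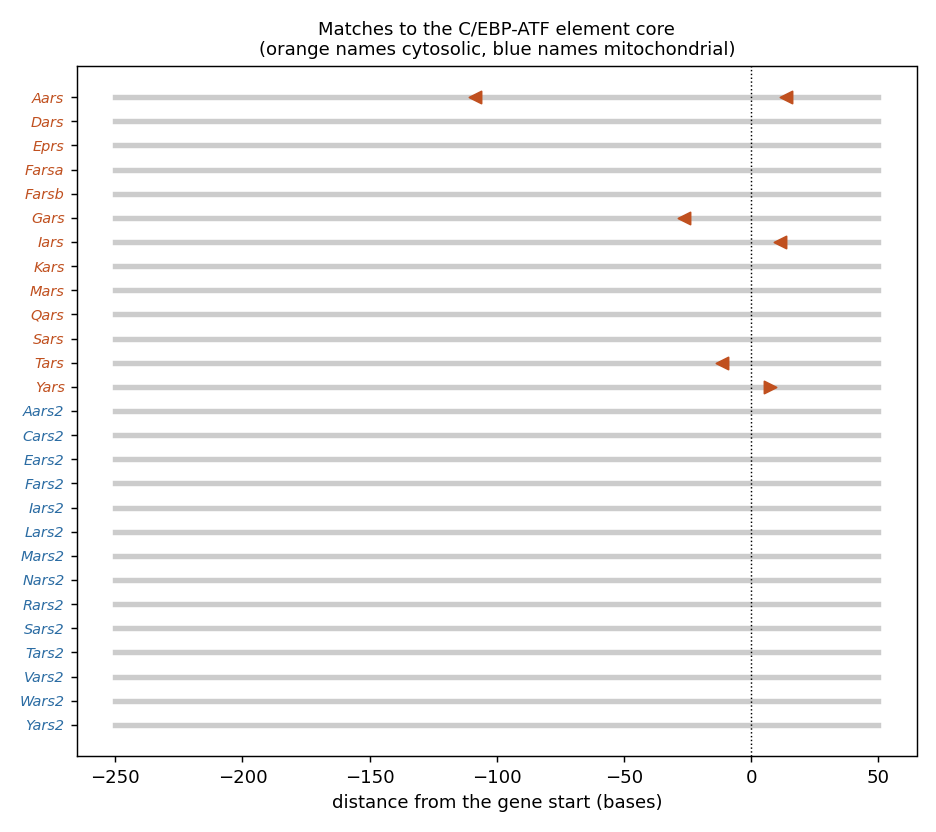
Matches to the core of the C/EBP-ATF response element (triangles, pointing along the strand they read on) by distance in bases from the start of each gene, for 13 cytosolic genes (orange names) and 14 mitochondrial genes (blue names); grey bars are the windows searched. Matches occurred in Aars (2 matches), Gars, Iars, Tars and Yars and in no mitochondrial gene.

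In B16F10, 4 cytosolic synthetase genes rose in the PGC7 clones and none fell: Cars, Sars, Aars and Nars, which charge tRNA with cysteine, serine, alanine and asparagine. The increases were 1.63- to 3.12-fold. No mitochondrial synthetase gene was called in either direction, and 2 of 16 had an unadjusted p under 0.05 (Fars2, above the control, and Yars2, below it). At that level were 10 of 19 cytosolic genes and 3804 of the 25236 tested probe sets. Of all 25236 tested probe sets, 1.19% were called in this comparison by limma at an adjusted p under 0.05, and 0.923% were called higher, against 4 of 19 cytosolic genes.

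Cars had signals of 1460, 1742 and 1530 in B16F10 PGC7 clones 1, 2 and 3, against 506 in the B16F10 control. Every clone was above the control, and the mean of 1577 ± 147 (SD, n = 3) was 3.12-fold higher (log2 1.62 ± 0.14 SE, adjusted p = 0.00262). Sars had 5986, 7495 and 6803 in the same clones against 2850 in the control. Its mean of 6761 ± 756 was 2.37-fold higher (log2 1.24 ± 0.14, adjusted p = 0.00793), with clone 1 lowest and clone 2 highest. Aars had 6975, 8080 and 7840 in the clones against 3849 in the control. Its mean was 1.98-fold higher (log2 0.98 ± 0.13, adjusted p = 0.0157), and the 3 clones lay closer to each other than to the control. Nars had 9823, 12058 and 10430 in the clones against 6601 in the control, a 1.63-fold higher mean (log2 0.70 ± 0.13, adjusted p = 0.0489) that only just passed the threshold.

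Second probe sets read the same genes for these 4 members. The second Aars probe set had 3273, 4032 and 2945 in the clones against 1671 in the control (log2 1.02, adjusted p = 0.0386). The second Sars probe set had a log2 change of 1.08 (adjusted p = 0.0194), and the second Nars probe set one of 1.05 (adjusted p = 0.0187), above the 0.70 of its brighter partner. The dim second Cars probe set, with 72.1, 97.0 and 86.3 in the clones against 58.5 in the control, was not called (adjusted p = 0.66). The second probe sets of Aars, Sars and Nars were therefore called, and that of Cars was dim.

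Beyond the 4 called genes, 8 cytosolic members had all 3 clones above the control without passing the test, so that 12 of 19 did, where 37% of all tested probe sets did. They were Lars, Iars, Tars, Mars, Yars, Gars, Eprs and Qars, for leucine, isoleucine, threonine, methionine, tyrosine, glycine, glutamate with proline, and glutamine. Their log2 values ran from 0.30 for Qars to 0.76 for Lars. Qars depended on the probe set. Its next brightest probe set had 2957, 3062 and 2727 in clones 1, 2 and 3 against 2860 in the control (log2 0.03). The other Qars probe sets had 0.01 and, at a dim one, -1.36, without a call. Lars had 3584, 4963 and 3592 in clones 1, 2 and 3 against 2361 in the control, so clone 2 stood above the other clones (log2 0.76 ± 0.20, adjusted p = 0.113). Iars had a mean of 7541 ± 433 in the clones and 4658 in the control (log2 0.69, adjusted p = 0.159), and Tars 4105 ± 520 and 2554 (log2 0.68, adjusted p = 0.0781). The means of Mars and Yars were 1.45-fold above the control for both genes, that of Gars 1.31-fold, that of Eprs 1.28-fold and that of Qars 1.23-fold.

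The remaining 7 cytosolic members did not share this direction. Hars, Kars, Wars, Farsb and Rars, which serve histidine, lysine, tryptophan, phenylalanine (its beta subunit) and arginine, had all 3 clones below the control, as 32.2% of all tested probe sets did, with log2 values from -0.33 for Hars to -0.10 for Rars. Other probe sets of Wars had 0.005, 0.07 and -0.07. Vars for valine and Farsa, the alpha subunit of the phenylalanine enzyme, had values of -0.01 and 0.01, with clones on both sides of the control. The 2 subunits of the phenylalanine enzyme, Farsa and Farsb, thus both lay near 0.

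The mitochondrial set had 3 of 16 members with all clones above the control and 7 with all clones below it. Of all tested probe sets 37% and 32.2% did so. Vars2, the mitochondrial valine enzyme, had 245, 270 and 161 in clones 1, 2 and 3 against 369 in the control. Clone 3 was the lowest of the 3, and the log2 value of -0.72 ± 0.53 was not called (adjusted p = 0.585). A second Vars2 probe set had 0.05. Sars2 had a mean of 128 ± 11.96 in the clones and 193 in the control (log2 -0.57, adjusted p = 0.336), and Yars2 had 892 ± 40.2 and 1326 (log2 -0.57, adjusted p = 0.251). Fars2 for phenylalanine stood on the other side, with 450, 393 and 505 in the clones against 277 in the control (log2 0.67, adjusted p = 0.265). Wars2 and Iars2 had 0.37 and 0.35, also with every clone above the control.

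**Figure D2:**
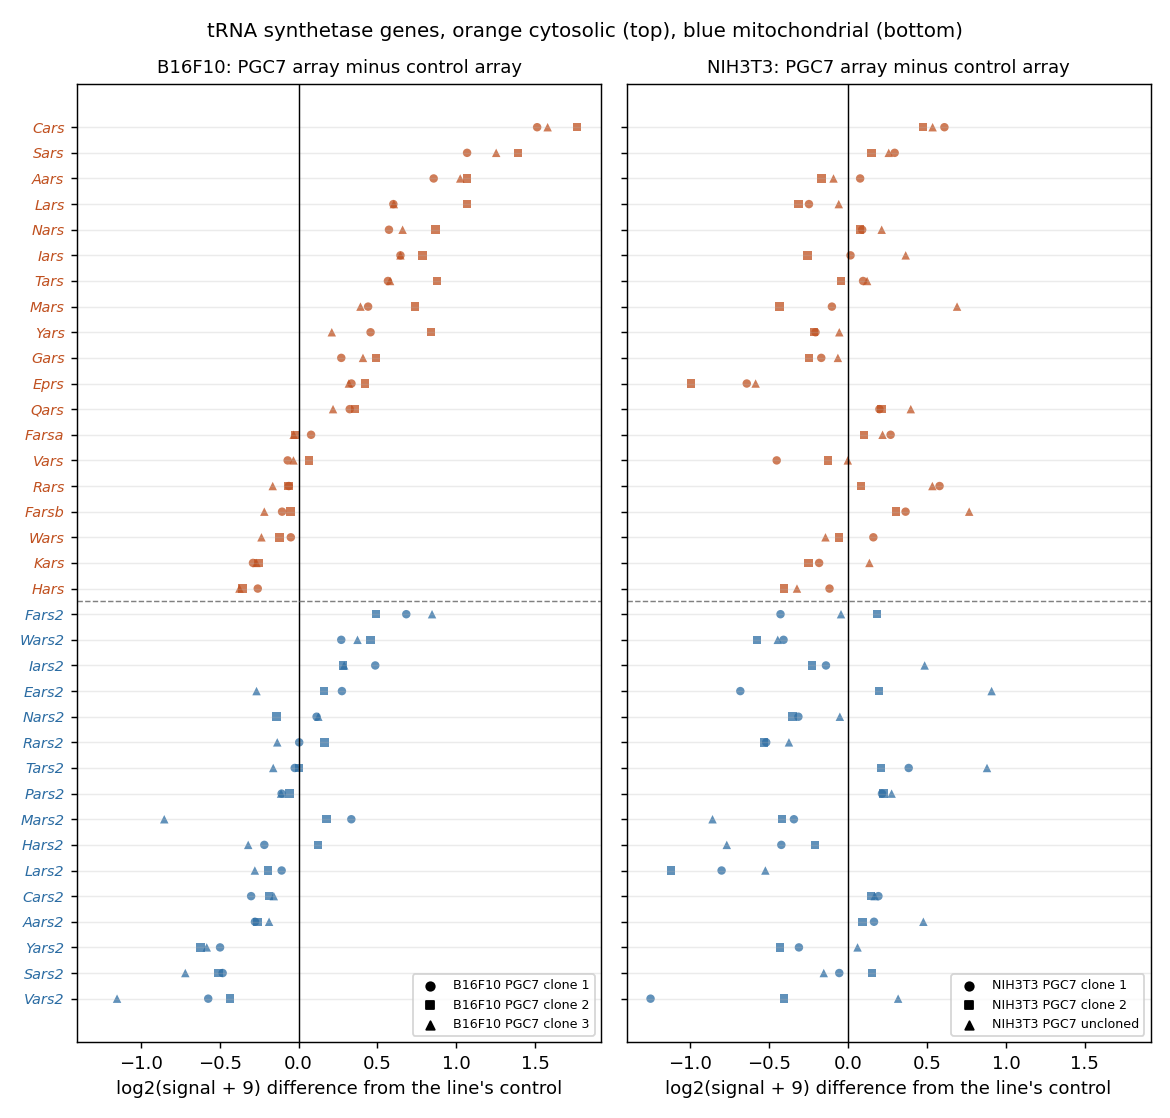
Difference in log2(signal + 9) between each PGC7 array and the control array of its line, for 19 cytosolic genes (orange, top) and 16 mitochondrial genes (blue, bottom), in B16F10 (left) and NIH3T3 (right); each symbol is 1 array. In B16F10 the 3 clones of 12 cytosolic genes lie right of 0, with Cars, Sars and Aars farthest, and in NIH3T3 both sets lie on both sides of 0.

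As sets, the cytosolic genes had a median log2 value of 0.39 in B16F10 and the mitochondrial genes -0.10, beside 0.02 for all tested probe sets. The gap between these medians was 0.40, 0.52 and 0.49 in clones 1, 2 and 3, so it had the same sign in each clone. In 10 of 13 pairs of genes for the same amino acid the cytosolic gene had the higher value, with a median pair difference of 0.71, and the exceptions were Hars, Rars and Wars against their mitochondrial counterparts. Within the cytosolic set, the 7 measured members of the multi-synthetase complex had a median of 0.36 and 0 calls, and the 12 outside it had 0.45 and 4 calls. An unadjusted p under 0.05 was reached by 3 members of the complex, 7 outside it and 3804 of 25236 tested probe sets. Class I and class II enzymes, which differ in the fold of the catalytic domain, had medians of 0.50 and 0.39 over 9 genes each. The 5 genes with a match in the promoter window ranged from 0.39 to 0.98 (median 0.68), and the 7 measured cytosolic genes with a window but no match from -0.27 to 1.24 (median 0.30). In NIH3T3 the order was the other way, with medians of -0.06 for the genes with a match and 0.20 for those without. No test was made over members. The cytosolic and mitochondrial sets also differed in brightness, with B16F10 control signals of 506 to 8610 and of 71.0 to 1326. The SE of the B16F10 change ran from 0.12 to 0.36 in the cytosolic set and from 0.17 to 0.54 in the mitochondrial set. Members with a larger SE needed a larger change for a call, and the part of brightness in the gap was not tested.

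**Figure D3:**
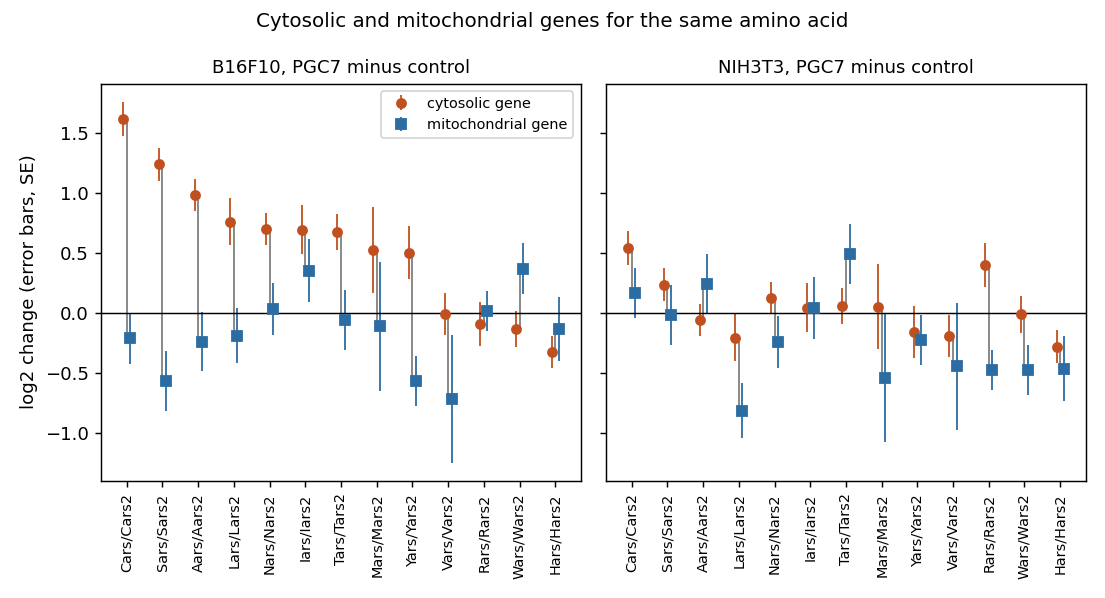
Log2 change (PGC7 minus control, error bars SE) of the cytosolic gene (orange circles) and the mitochondrial gene (blue squares) for the same amino acid, joined by a grey line, in B16F10 (left) and NIH3T3 (right), for 13 pairs. In B16F10 the cytosolic gene is higher in 10 pairs, with Cars, Sars and Aars farthest from their counterparts.

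These calls leaned on single arrays and on the scaling. The shared estimate of the spread includes NIH3T3. Without its uncloned array 8 members were called in B16F10, adding Iars, Lars and Tars as higher and Yars2 as lower. With the 4 B16F10 arrays alone 9 were, adding Eprs. Calls over all 25236 tested probe sets grew too, from 300 to 1835 in the first of these fits and 2196 in the second. Without B16F10 clone 2 or clone 3, Cars and Sars alone were called, and without B16F10 clone 1, NIH3T3 clone 1 or NIH3T3 clone 2 the Nars call was lost. When arrays were scaled on the poly-A spikes, which moved the median of all probe sets to -0.54, Cars was called higher and Hars, Kars and Yars2 lower, while the gap between the cytosolic and mitochondrial medians was 0.44, against 0.49 before.

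In NIH3T3, Cars rose and Eprs fell in the PGC7 arrays, and no mitochondrial gene was called. Cars was 1.46-fold higher, a smaller value than in B16F10, and Eprs, which carries the glutamate and proline activities on 1 chain, had a mean 0.60 times that of the control. Of all tested probe sets 12.8% were called in this line and 6.47% were called higher. The 2 of 19 cytosolic and 0 of 16 mitochondrial genes called were thus no larger shares than the background. An unadjusted p under 0.05 was reached by 3 of 19 cytosolic genes and 2 of 16 mitochondrial ones (Lars2 and Rars2). Over all 25236 tested probe sets 7263 reached it.

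Cars had 2416, 2198 and 2293 in NIH3T3 PGC7 clone 1, clone 2 and the uncloned culture, against 1580 in the NIH3T3 control (log2 0.54 ± 0.14, adjusted p = 0.0423). All 3 arrays lay above the control and within a narrow span. Eprs had 2575, 2013 and 2677 in these arrays against 4026 in the control, with clone 2 lowest (log2 -0.74 ± 0.16, adjusted p = 0.0213). The next brightest Eprs probe sets gave -0.80 (adjusted p = 0.01) and -0.87 (adjusted p = 0.036), and a dim one gave -0.67 without a call. The 3 bright probe sets of Eprs were thus all called lower in this line.

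Aars had 5146, 4336 and 4576 in NIH3T3 PGC7 clone 1, clone 2 and the uncloned culture against 4882 in the control, so the arrays lay on both sides of it (log2 -0.06, adjusted p = 0.805). Sars had 7107, 6422 and 6924 against 5793 in the control, all above it but uncalled (log2 0.23, adjusted p = 0.306). Nars had 6482, 6417 and 7063 against 6095 (log2 0.13, adjusted p = 0.583). Lars, with 3243, 3095 and 3698 against 3854, lay below the control in all 3 arrays without a call (log2 -0.21, adjusted p = 0.536). Of the genes that rose in B16F10, Cars was therefore the one that also passed the test in this line.

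**Figure D4:**
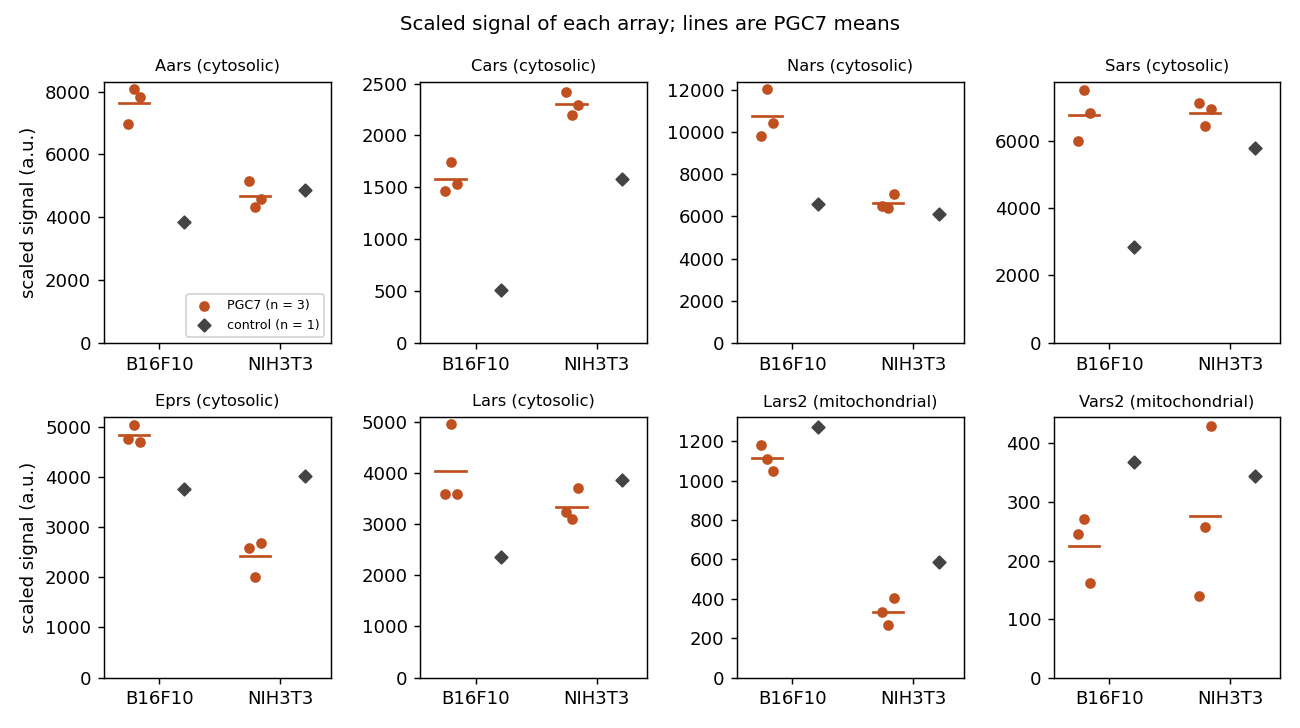
Scaled signal in arbitrary units (axes start at 0) of the 3 PGC7 arrays (orange, line at the mean) and the control array (grey diamond) of each line, for the 5 members called in a change and the 3 next largest. In B16F10 the PGC7 arrays of Aars, Cars, Nars, Sars, Eprs and Lars lie above the control, and those of Lars2 and Vars2 below it. In NIH3T3 those of Cars, Nars and Sars lie above the control, and those of Eprs, Lars and Lars2 below it.

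Farsb, the beta subunit of the cytosolic phenylalanine enzyme, depended on the probe set in NIH3T3. Its brightest probe set had 3812, 3658 and 5045 in clone 1, clone 2 and the uncloned culture against 2961 in the control and was not called (log2 0.48, adjusted p = 0.116). Another bright probe set and a dim one were called higher, by 0.63 (adjusted p = 0.0386) and 1.75 (adjusted p = 0.00731), and the remaining one was not (0.78, adjusted p = 0.07). All 4 Farsb probe sets had positive values here and negative ones in B16F10.

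Among the mitochondrial genes in NIH3T3, Lars2 for leucine came closest to a call, with 333, 265 and 406 in clone 1, clone 2 and the uncloned culture against 588 in the control (log2 -0.82 ± 0.23, adjusted p = 0.0511). All 3 arrays lay below the control, and a second probe set had -0.61. Rars2 for arginine had a mean of 687 ± 42.8 in the PGC7 arrays and 958 in the control (log2 -0.48, adjusted p = 0.101). Vars2 had 139, 257 and 430 in these arrays against 344 in the control, a spread wider than its log2 value of -0.45 (adjusted p = 0.633). Tars2 had the highest value of the set, 0.49, where the uncloned array at 1151 stood above clones 1 and 2 at 813 and 719 and the control at 621. All 3 PGC7 arrays were above the control for 7 of 19 cytosolic and 4 of 16 mitochondrial genes, where 28.9% of all tested probe sets were, and below it for 6 and 6, where 38.3% were.

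The median log2 value in NIH3T3 was 0.04 for the cytosolic genes, -0.16 for the mitochondrial genes and -0.07 for all tested probe sets. The gap of 0.20 varied between arrays, at 0.41 in clone 1, 0.09 in clone 2 and 0.13 in the uncloned culture. In 11 of 13 same-amino-acid pairs the cytosolic gene had the higher value, with a median pair difference of 0.25. The calls in this line were fragile. Without clone 1 the Cars call was lost. Without clone 2 Eprs was called lower and Rars higher but not Cars. Without the uncloned array 5 members were called (Farsb higher, Lars2 and Rars2 lower besides Cars and Eprs). In that fit 6133 of 25236 tested probe sets were called, against 3229 with all arrays. No member was called with the 4 NIH3T3 arrays alone or without B16F10 clone 1, and Eprs alone was without B16F10 clone 2 or clone 3. Scaled on the spikes, which moved the median of all probe sets to 0.25, Cars, Farsb and Rars were called higher and the Eprs call was lost.

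The change differed between the lines for 4 members, Eprs, Cars, Aars and Sars, all cytosolic and all with the higher value in B16F10, in a test of the difference itself. The share called over all tested probe sets was 6.88%, against 4 of 19 cytosolic and 0 of 16 mitochondrial genes. An unadjusted p under 0.05 was reached by 9 of 19 cytosolic genes and 1 of 16 mitochondrial ones (Wars2). Over all 25236 tested probe sets 5739 reached it. The differences, change in B16F10 minus change in NIH3T3, were log2 1.10 ± 0.23 for Eprs (adjusted p = 0.028), 1.08 ± 0.20 for Cars (adjusted p = 0.0192), 1.05 ± 0.19 for Aars (adjusted p = 0.0165) and 1.00 ± 0.19 for Sars (adjusted p = 0.0209). Eprs was not called in B16F10 (0.36, adjusted p = 0.349), so most of its difference lay in the lower NIH3T3 signals. Other probe sets of the 4 genes did not all carry the call. The second bright Aars probe set had 0.82 and was not called (adjusted p = 0.0923). Other bright Eprs probe sets had 1.23 (adjusted p = 0.0131) and, uncalled, 1.16 (adjusted p = 0.0613), and a dim one 0.47. The second Sars probe set had 0.97 (adjusted p = 0.0354), and the dim second Cars one 0.20 (adjusted p = 0.883). For Nars the 2 probe sets gave 0.58 (the brighter one, adjusted p = 0.106) and 1.01 (adjusted p = 0.0278). The dim Farsb probe set was called the other way, at -2.63 (adjusted p = 0.0101). Without B16F10 clone 3 no member was called, and without B16F10 clone 1 or clone 2 Eprs was not. Without the uncloned NIH3T3 array 8 were (adding Gars, Iars, Lars and Nars), while calls over all 25236 tested probe sets grew from 1737 to 4404. On the spike scaling none of the 4 was called, while 11 other members were called lower. There 6325 of 25877 tested probe sets were called lower, and the median of all probe sets itself moved to -0.78.

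Levels of many synthetase genes differed between the lines, in both directions. Over all 8 arrays, 12 of 19 cytosolic genes (8 higher in B16F10, 4 lower) and 11 of 16 mitochondrial genes (6 higher, 5 lower) were called, with PGC7 status as a term in the fit. The share over all tested probe sets was 71.4%, so these counts lay near the background. Line cannot be told apart from any difference in hybridization between the lines, and these levels rest on giving all arrays the same trimmed mean.

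There were 7 called members at least 2-fold apart. Lars2 had 1048 to 1272 in the 4 B16F10 arrays against 265 to 588 in the 4 NIH3T3 arrays (log2 1.57 ± 0.17, adjusted p = 3.49e-05). Yars2 had 858 to 1326 in B16F10 against 345 to 488 in NIH3T3 (log2 1.23), and Iars 4658 to 8041 against 2637 to 4065 (log2 1.05). At these probe sets the 3 genes were higher in the melanoma line with no overlap between the lines. The second Iars probe set overlapped, with 2166 to 4408 in B16F10 against 2370 to 3820 in NIH3T3, and was not called (log2 0.30, adjusted p = 0.124). The second Lars2 probe set had 6.28 to 39.2 in B16F10, all under the filter signal of 49.3, against 155 to 262 in NIH3T3, so it was lower in B16F10 with no fold that can be read. Wars2, for tryptophan, had 119 to 166 in B16F10 against 482 to 723 in NIH3T3 (log2 -1.89 ± 0.18, adjusted p = 1.69e-05), with a smaller difference at its second probe set (-0.46, adjusted p = 0.0427). Yars had 592 to 1066 in B16F10 against 2228 to 2592 in NIH3T3 (log2 -1.62), Pars2 for proline 178 to 193 against 380 to 462 (-1.19), and Sars2 114 to 193 against 284 to 353 (-1.10). The tyrosine enzymes thus stood in opposite order in the lines, cytosolic Yars lower and mitochondrial Yars2 higher in B16F10. At the brightest probe sets, 6 of 13 same-amino-acid pairs had line differences of opposite signs. Some of these signs were of uncalled values: Vars (0.21), Vars2 (-0.10), Wars (0.06) and Hars2 (-0.29). Some also turned with the probe set: other Wars probe sets had -0.28, -0.57 and -1.32, and the second Hars2 probe set 0.57. All 4 arrays of one line lay above all 4 of the other for 5 of 19 cytosolic and 9 of 16 mitochondrial genes, where 62.9% of all tested probe sets did. The level of Aars depended on the probe set, with 0.44 at its brightest one and -1.15 at the second. At their brightest probe sets, the PGC7 clones of Sars and Cars lay closer to the NIH3T3 arrays than the B16F10 control did. Their B16F10 control signals of 2850 and 506 lay below every NIH3T3 array. Those of Aars (3849), Lars (2361), Tars (2554), Qars (2681), Farsa (839) and Yars (592) also did. For Aars the clones, at 6975 to 8080, lay above the NIH3T3 range of 4336 to 5146. At the second Aars probe set they lay below it, at 2945 to 4032 against 5680 to 6878. For Sars the clones at 5986 to 7495 reached the NIH3T3 range of 5793 to 7107. At the second Sars probe set the control had 3640. The clones there, at 7153 to 8856, lay above the NIH3T3 range of 4772 to 5681.

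**Figure D5:**
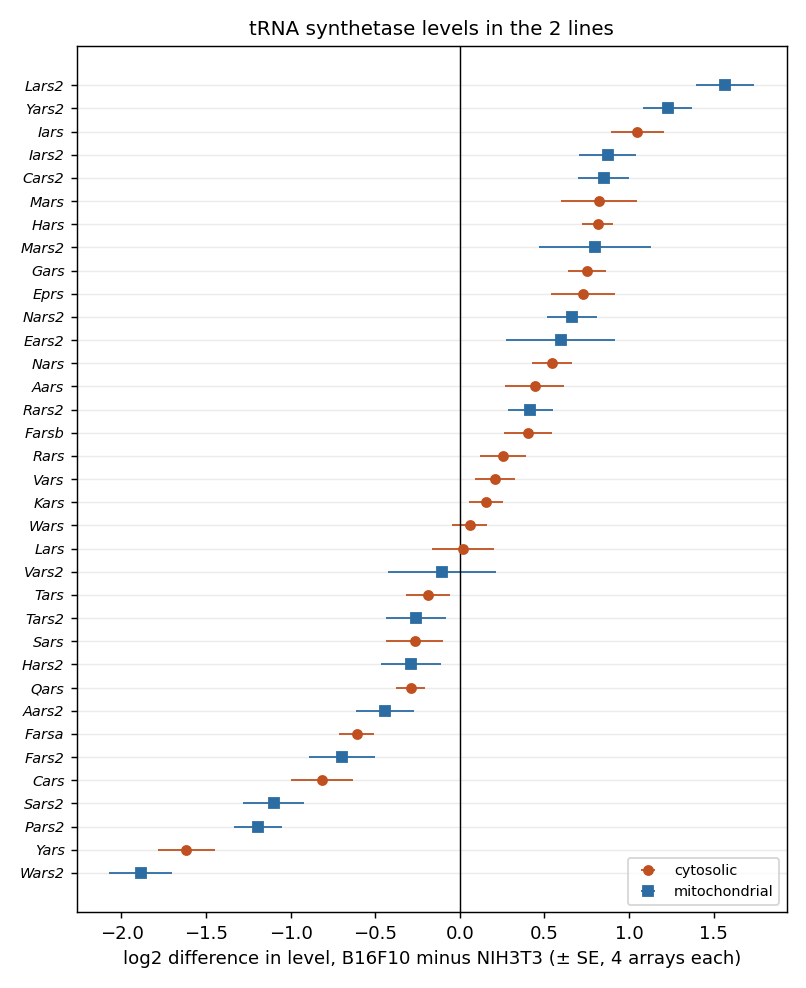
Log2 difference in level between B16F10 and NIH3T3 (all 4 arrays of each line, PGC7 status as a term, error bars SE) for cytosolic (orange circles) and mitochondrial (blue squares) synthetase genes, ordered by value. Lars2, Yars2 and Iars lie at 1.05 or above, and Sars2, Pars2, Yars and Wars2 at -1.10 or below.

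Genes that work beside the synthetases were read from a list of 19, of which 16 were measured. It held scaffold proteins of the multi-synthetase complex (Aimp1, Aimp2 and Eef1e1), elongation factors, tRNA-editing enzymes and the mitochondrial amidotransferase that makes glutaminyl-tRNA. None was called in B16F10, and the median was -0.07. An unadjusted p under 0.05 was reached there by 2 of the 16, and by 3804 of 25236 tested probe sets. In NIH3T3 the scaffold gene Eef1e1 rose (log2 0.56, adjusted p = 0.0228) and Dtd1, which removes D-amino acids from tRNA, fell (-0.80, adjusted p = 0.00741). The change differed between the lines for both, at -1.09 for Eef1e1 and 1.02 for Dtd1. Shares of 0 of 16 in B16F10 and 2 of 16 in NIH3T3 lay near the 1.19% and 12.8% called over all tested probe sets, and no difference from the synthetases was tested.

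Other genes of the ATF4 response, 26 measured of a list of 27, included 14 that rose and 0 that fell in B16F10, where 1.19% of all tested probe sets were called, with a median log2 value of 1.26. This list was chosen with earlier results of these data known and is not independent evidence of its direction. Its 6 largest rises were in the stress-response genes Nupr1 (log2 4.49), Trib3 (4.01) and Ddit4 (3.15), in Chac1, a glutathione-degrading enzyme (2.88), in Slc7a11, the cystine transporter (2.74), and in the transcription factor gene Atf3 (2.21). Asns, the asparagine synthetase of amino acid metabolism, rose by 1.65, and Atf4 itself by 0.65 (adjusted p = 0.043), both named after their values were seen. In NIH3T3, 1 gene of the list rose (Atf3, 1.49) and 4 fell, Cth (-2.24), Slc7a1 (-1.22), Slc7a5 (-1.06) and Phgdh (-0.67), with a median of -0.45, where 12.8% of all tested probe sets were called. The change of Atf3 was not called different between the lines (0.71, adjusted p = 0.439). The cytosolic synthetase medians of 0.39 in B16F10 and 0.04 in NIH3T3 stand beside medians of 1.26 and -0.45 for this list, and both lists share the same 2 control arrays.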

How the data were processed

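The authors deposited 1 intensity signal per probe set and array, made with MAS5 per the submitters' processing notes, with no version or setting stated there. The 4 B16F10 columns shared a 2% trimmed mean of 500.003 and the NIH3T3 columns had 143 to 189, so each array was multiplied to 500. Of 45101 probe sets, 64 were controls and 19801 had a mean log2(signal + 9) under the median (signal 49.3) in both lines, which left 25236. Symbols came from the platform annotation, updated by gene identifier to GRCm38.p6 (34754 of 34958 probe sets with 1 symbol); 932 had several symbols and 9211 none. In R 4.3.3 with limma 3.58.1, 4 group means were fitted to all 8 arrays (lmFit, eBayes with trend, two-sided), adjusted by Benjamini-Hochberg over all tested probe sets and called under 0.05; line levels used an additive fit. Each lone control was given the spread of the PGC7 arrays, and an exact permutation test of 3 arrays against 1 could not reach that threshold. The number of arrays limits the precision. Members, lists and tests were chosen with earlier results of these data known. A gene was represented by its brightest tested probe set; values in every array were given for members called in a change and for the next largest up to 8, line differences were named when called and at least 2-fold, and up to 6 called genes were named per other list. Alternatives changed the scaling, pseudocount (1 and 50), filter, variance trend, probe sets, arrays in the fit and single arrays. The motif search used RefSeq promoter windows.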

Additional observations from a re-analysis of the deposited data

Results flagged for a closer look

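The change under PGC7 differed between the lines by an interaction test for 4 members, with B16F10 minus NIH3T3 values of log2 1.05 for Aars, 1.08 for Cars, 1.10 for Eprs and 1.00 for Sars. In each case all 3 B16F10 PGC7 arrays lay above the B16F10 control, while the NIH3T3 PGC7 arrays lay on both sides of their control for Aars, above it for Cars and Sars, and below it for Eprs. Each line has 1 control array, so the difference rests on 2 control arrays, and the part of either control array in it was not tested. The poly-A spikes moved up in the B16F10 clones and down in the NIH3T3 PGC7 arrays, and the 4 values fell to between 0.05 and 0.14 on the spike scaling. The median difference of all tested probe sets moved with them, from 0.11 to -0.78, so the 4 values stayed above that median. Groups of 3 arrays were too small for a check of single outlying samples.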

How the results depend on the processing

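The 4 members called in B16F10 became 1 without the variance trend and 9 with the B16F10 arrays alone. They ranged from 2 to 8 when any 1 PGC7 array was left out. Calls over all tested probe sets moved too, from 300 to 70 without the trend and 2196 with the B16F10 arrays alone. With 1 array left out these calls were 59 to 1835. The 2 called in NIH3T3 became 1 on the deposited scale, 1 without the filter and 0 without the trend. They became 1 with all probe sets of a gene averaged, 4 without the probe sets marked as shared between transcripts and 0 with the NIH3T3 arrays alone. With 1 array left out they ranged from 0 to 5. Calls in NIH3T3 over all tested probe sets, 3229 with all arrays, then ranged from 1999 to 6133. The 4 called in the difference became 2 on the deposited scale, 11 on the spike scaling (all lower) and 0 without the trend. They became 3 without the shared probe sets, where Aars was lost, and ranged from 0 to 8 with 1 array left out. Calls in the difference over all tested probe sets, 1737 before, were 6732 on the spike scaling. They ranged from 739 to 4404 with 1 array left out. The 23 called between the lines ranged from 19 to 24 with 1 array left out and from 16 to 32 over the 12 other alternatives. The gap between cytosolic and mitochondrial medians in B16F10 was 0.60 after quantile normalization and 0.41 to 0.54 with 1 array left out, and that in NIH3T3 0.06 to 0.26. Line differences that turned were Lars2, at -0.72 with probe sets averaged, and Pars2 (0.34), Sars2 (0.41) and Wars2 (1.05) on the deposited scale, where NIH3T3 arrays have lower trimmed means. The Lars2 turn follows from averaging 1.57 with the -3.01 of its second probe set, which was under the filter signal in B16F10. The line call was lost for Yars on the deposited scale (-0.04), for Iars without the shared probe sets (0.30) and on the spike scaling (0.33), and for Yars2 on the spike scaling (0.52). Pars2 and Sars2 were not called on the deposited scale. Of 18 alternatives, the B16F10 call held in 17 for Cars, 16 for Sars, 14 for Aars and 7 for Nars, all with the direction kept, and the NIH3T3 call in 8 for Cars and 13 for Eprs. No paired analysis was possible because each line has 1 control with no number. Clone numbers 1 and 2 name independent clones of different lines (deviations of equal numbers correlated at 0.01 and -0.10), and with them as a replicate block 25 members differed between the lines. With 1 control array a line, the spread between control cultures is unknown.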
